A study of Arabidopsis thaliana with 12 samples.

Results

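The photosystem and electron transport subunits that Arabidopsis thaliana encodes in its nucleus were followed in seedlings kept at 22 or 29 °C. The members were taken from a list of gene identifiers: 12 photosystem I genes, 6 genes of the oxygen-evolving side of photosystem II, 7 other photosystem II genes, 4 genes of cytochrome b6f and plastocyanin, 3 genes of ferredoxin and ferredoxin-NADP+ reductase, and 2 genes of the chloroplast ATP synthase. All 34 were found among the 32399 genes of the table, and all 34 passed the filter on low counts. RNA was sequenced from seedlings of 5 days, grown at 22 °C in long days and then held at 29 or 22 °C for 12 h up to zeitgeber time 12, which counts hours from lights on. The 4 groups have 3 libraries each: seedlings labelled rve5-2 at 29 °C, seedlings labelled rve5-2 at 22 °C, WT at 29 °C and WT at 22 °C. The study's title concerns REVEILLE5 (RVE5), a Myb-like factor, its interplay with CCA1 of the circadian clock, and the elongation of the hypocotyl in response to temperature. The rve5-2 label is an allele name of RVE5, and the labels say neither what the allele does nor of any further allele or agent in either genotype. RVE5 itself was not lower but far higher in the libraries with that label: it averaged 1329 ± 85.6 CPM in the rve5-2 libraries at 29 °C and 1011 ± 68.2 CPM in those at 22 °C, against 15.1 ± 1.66 CPM in WT at 29 °C and 14.9 ± 0.757 CPM in WT at 22 °C (SD, n = 3 each; CPM, counts per 1e6 counts of a library after TMM scaling). Every genotype difference here is therefore that of the libraries labelled rve5-2, in which RVE5 transcript was high. The shared treatment text names 29 °C for every sample, so each library's temperature was taken from its own label. The labels do not say whether replicates were separate cultures, so p-values cover the spread among the libraries at hand, which may be technical.

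In the light reactions, photosystem II takes electrons from water, plastoquinone and the cytochrome b6f complex pass them to plastocyanin in the thylakoid lumen, and photosystem I lifts them to ferredoxin on the stromal side. Ferredoxin-NADP+ reductase then makes NADPH, and the ATP synthase uses the proton gradient that builds up on the way. The reaction centre cores are encoded in the plastid, whereas most peripheral subunits are encoded in the nucleus, made in the cytosol and imported, often from 2 gene copies each. Nuclear photosynthesis genes are known in Arabidopsis for control by light, by the circadian clock and by GLK transcription factors.

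Total counts were 65.9 to 89.1 M (1e6) per library, and the lowest count of any member in any library was 7235, so counting error was small beside the spread between libraries. The members together took 6.43 to 6.96% of the counts in the rve5-2 libraries at 29 °C, 5.29 to 5.71% in those at 22 °C, 5.06 to 6.32% in WT at 29 °C and 4.73 to 5.11% in WT at 22 °C. The highest WT value at 29 °C came from replicate 1, while the other 2 stood at 5.06 and 5.26%. That library was the highest of its group for all 34 members, at 1.22 to 1.499 times the mean of the other 2 libraries (median 1.35). It also stood apart in root RNA: the mean log2 CPM of 19 root markers was -1.03 in replicate 1 and 1.35 and 1.34 in the other 2 WT libraries at 29 °C, replicate 1 was the lowest of the 3 for 18 of the 19 markers, and 2 of the markers were at 0 in it. The counts of called genes are therefore also given without it. Root markers moved with temperature as well. Their summed level was 84.1 to 126 CPM in the rve5-2 libraries at 29 °C and 246 to 349 CPM in those at 22 °C, and 63.8 to 130 CPM in WT at 29 °C and 189 to 293 CPM in WT at 22 °C. By the test used for the members, 10 of the 19 fell with warmth in the rve5-2 libraries (median log2 fold change of all 19, -2.87) and 12 of 19 fell in WT (median -2.36), while none was called between genotypes. Of all genes, 13% were called lower in the rve5-2 libraries and 7.41% in WT. Without WT 29 °C replicate 1, 14 of 19 fell in the rve5-2 libraries (16.5% of all genes) and 11 of 19 in WT (5.59% of all genes), and again none was called between genotypes. In RNA of seedlings, fewer cells of a type and less RNA per cell cannot be told apart.

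Levels are compared between genes only in the authors' FPKM, which are scaled per length. Gene positions are those of the deposited table, on TAIR10. PSBR, a subunit of the oxygen-evolving side of photosystem II, had the highest mean level of the members over the 12 libraries, 5209 FPKM, the 6th highest of all genes in the table. Plastocyanin PETE2 followed with 4085 FPKM, then the manganese-stabilising protein PSBO1 with 3676 FPKM and PSBP1, which helps to hold calcium and chloride at the manganese cluster, with 3475 FPKM. Of the 34 members, 29 ranked among the 100 most abundant genes. At the low end stood PSB28, a photosystem II assembly protein (303 FPKM), PETM, a small cytochrome b6f subunit (296 FPKM), and PETE1, the minor plastocyanin (186 FPKM). Neighbours in this order, such as PSBO1 and PSBP1 or PSAF (3131 FPKM) and PSAD1 (3111 FPKM), were not tested against each other. No stretch of 50 exon bases of any member occurs elsewhere in the genome on either strand, so paralogs can be told apart by such reads. The kit does not mark the strand, and PSAE2, PSAH1, PSBR and FNR1 overlap a gene of the table on the other strand. Those neighbours averaged 63.6, 2.48, 45.7 and 11.3 CPM, in the same order, against 560.3, 772, 3864 and 1436 CPM for the members.

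Sequence just upstream of the annotated starts was searched for 4 short motifs on both strands, in windows of 250 bases. For these counts the windows were not cut at neighbouring genes. The G-box of ATPD and the I-box of PSAH2 lie beyond the 15 and 32 bases next to the start that are free of a neighbouring gene. The G-box CACGTG, which light-signalling and PIF factors bind, was in 7 of 34 member windows (20.6%) and in 5.9% of all 32398 windows. The I-box GATAAG, a motif of light-regulated promoters, was in 8 member windows (23.5%) and in 12.6% of all windows. The 2 motifs named for the clock were no more frequent than elsewhere: the CCA1-binding site AAAAATCT was in PSAN and PSAO (5.88% of members, 6.32% of all windows), and the evening element AAATATCT, which RVE-type Myb factors bind, was in ATPC1 alone (2.94% of members, 4.54% of all windows). These are counts of letters, with no test, and show no binding. Overlaps between motifs were allowed. The 7 sequences here belong to genes on which the results turn: both PSBQ copies, which hold a G-box and whose ratio differed between genotypes, both plastocyanin copies, the photosystem I genes PSAO and PSAN with a CCA1-binding site, and ATPC1, which was not called in any comparison, with the evening element. Each is from RefSeq on TAIR10.1, 5′ to 3′ on the gene's strand, up to 250 bases ending just before the RefSeq start and cut short where a neighbouring annotated gene begins. Capitals mark the motifs, written as their reverse complement where the match is on the other strand. PSBQ1 is chr4:11334169-11334351 on the plus strand (183 bases), PSBQ2 chr4:2673244-2673493 on the minus strand (250 bases), PSAO chr1:2641935-2642071 on the minus strand (137 bases), PSAN chr5:25629709-25629831 on the minus strand (123 bases), ATPC1 chr4:2352026-2352275 on the minus strand (250 bases), PETE1 chr1:28554931-28555033 on the minus strand (103 bases), in which none of the 4 motifs was found, and PETE2 chr1:7043393-7043627 on the minus strand (235 bases).
PSBQ1: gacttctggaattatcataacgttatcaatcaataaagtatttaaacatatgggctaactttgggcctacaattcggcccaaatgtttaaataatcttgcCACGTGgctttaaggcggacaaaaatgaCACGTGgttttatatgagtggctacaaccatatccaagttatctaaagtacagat
PSBQ2: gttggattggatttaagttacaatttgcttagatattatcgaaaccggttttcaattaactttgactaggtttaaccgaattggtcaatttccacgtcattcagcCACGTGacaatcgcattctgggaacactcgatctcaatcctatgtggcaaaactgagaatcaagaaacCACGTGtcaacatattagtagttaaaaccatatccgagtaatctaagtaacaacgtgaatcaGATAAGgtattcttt
PSAO: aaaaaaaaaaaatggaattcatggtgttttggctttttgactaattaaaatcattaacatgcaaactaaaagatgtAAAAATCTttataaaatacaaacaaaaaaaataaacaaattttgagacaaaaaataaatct
PSAN: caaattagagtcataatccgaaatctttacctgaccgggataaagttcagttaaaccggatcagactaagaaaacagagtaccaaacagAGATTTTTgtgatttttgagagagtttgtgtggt
ATPC1: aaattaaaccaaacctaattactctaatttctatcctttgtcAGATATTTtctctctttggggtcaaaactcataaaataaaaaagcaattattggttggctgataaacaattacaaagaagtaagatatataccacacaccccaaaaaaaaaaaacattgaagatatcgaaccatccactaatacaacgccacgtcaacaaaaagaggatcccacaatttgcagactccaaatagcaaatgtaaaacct
PETE1: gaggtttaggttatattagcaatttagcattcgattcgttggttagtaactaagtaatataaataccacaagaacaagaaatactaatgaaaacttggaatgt
PETE2: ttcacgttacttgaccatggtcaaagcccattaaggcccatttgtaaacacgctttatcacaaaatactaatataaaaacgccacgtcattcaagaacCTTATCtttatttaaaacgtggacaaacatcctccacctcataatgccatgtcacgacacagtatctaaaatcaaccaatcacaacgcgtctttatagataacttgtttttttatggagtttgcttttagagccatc

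After 12 h at 29 °C, most subunits of both photosystems, cytochrome b6f and plastocyanin rose in the rve5-2 libraries, whereas ferredoxin, its reductase and the ATP synthase had no called member. Of the 34 members, 22 rose and none fell (64.7%; edgeR's quasi-likelihood test, adjusted p under 0.05 over 21870 genes), while 13% of all genes tested were called higher and 13% lower. The members' median log2 fold change was 0.41, against -0.0047 for all genes, and 33 of 34 were positive. The 3 libraries at 29 °C all lay above the 3 at 22 °C for 29 members, as they did for 22.3% of all genes. By role, 10 of 12 photosystem I genes rose (median log2 fold change 0.48), 4 of 6 oxygen-evolving genes (0.36), 5 of 7 other photosystem II genes (0.46), 3 of 4 b6f and plastocyanin genes (0.54), 0 of 3 ferredoxin and reductase genes (0.09) and 0 of 2 ATP synthase genes (0.08). Changes of single genes are given throughout as log2 fold changes with their SE. Leaving out single libraries gave 13 to 29 called members. The count was 14 without rve5-2 22 °C replicate 2 and 13 without rve5-2 22 °C replicate 3, without rve5-2 29 °C replicate 1 or without rve5-2 29 °C replicate 2, with 8.45 to 9.75% of all genes called higher in those fits. It was 29 without WT 29 °C replicate 1 (14.9% of all genes then): 12 of 12 photosystem I genes, 6 of 6 oxygen-evolving genes, 6 of 7 other photosystem II genes, 4 of 4 b6f and plastocyanin genes, 1 of 3 ferredoxin and reductase genes and 0 of 2 ATP synthase genes. The 13 genes PSAD2, PSAE1, PSAE2, PSAH2, PSAK, PSAO, PSBR, PSBS, PSBW, PSBX, PSB27, PETE1 and PETE2 were called with every single library left out. Under quantile normalization 12 members were called higher and 2 lower, FNR2 (-0.36, adjusted p = 0.00729) and ATPC1 (-0.24, adjusted p = 0.0265), both named after their values were seen. In that fit 15.6% of all genes were called higher and 13.8% lower, the members' median was 0.12 (0.03 for all genes) and 24 of 34 were positive. With the root score (the average of those markers on the log2 CPM scale) as a covariate, PETE1 was the 1 member still called (1.28% of all genes then); the members' median was then 0.06, against 0.05 for all genes, and 20 of 34 were positive. The score itself moved with temperature. The part of root RNA in the warm response was not tested otherwise.

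In WT most members were also higher at 29 °C, with fewer calls: 6 rose (17.6%) and none fell, while 8.08% of all genes were called higher and 7.41% lower. The 6 were PSAD2, PSAE1, PSAH2, PSBS, PETE1 and PETE2. The median log2 fold change of the members was 0.23, against 0.0018 for all genes, and 31 of 34 were positive. In 14 members the 3 libraries at 29 °C all lay above the 3 at 22 °C, as in 18% of all genes. By role, the medians were 0.25 for photosystem I (3 called), 0.15 for the oxygen-evolving side (0 called), 0.28 for the rest of photosystem II (1 called), 0.27 for b6f and plastocyanin (2 called), -0.05 for ferredoxin and its reductase (0 called) and 0.02 for the ATP synthase (0 called). Without WT 29 °C replicate 1, the median was 0.08 and 4 members were called (PSAD2, PSAH2, PSBS and PETE1), against 5.58% of all genes, and 19 of 34 were positive. Without WT 22 °C replicate 1, 2 or 3, the counts were 3, 2 and 3, against 5.18, 5.24 and 4.43% of all genes. Without WT 29 °C replicate 2 the count was 10, against 6.38% of all genes. PSAD2 and PETE1 were called with every single library left out. With the root score as a covariate no member was called (0.37% of all genes), and the direction turned: the members' median was -0.13, against 0.05 for all genes, and 7 of 34 were positive. Under quantile normalization the median was 0.05, against 0.03 for all genes, and 23 of 34 were positive.

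**Figure D1:**
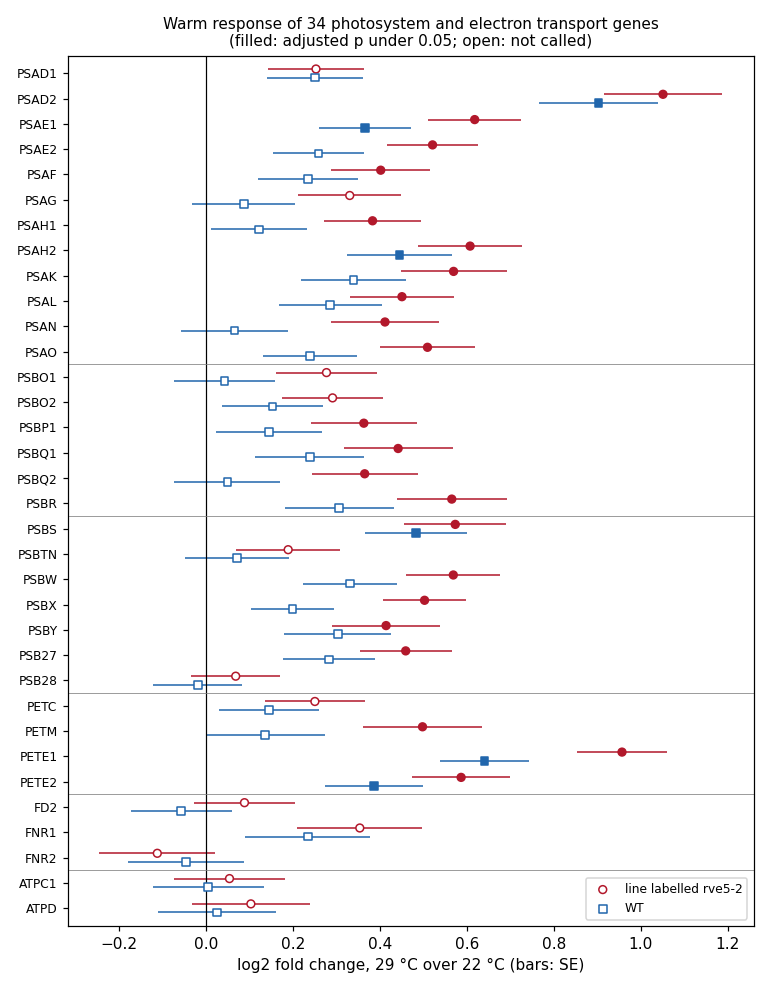
Log2 fold change of 29 against 22 °C for each of the 34 members, by role, in the rve5-2 libraries and in WT, with the standard error as bars and called members marked. PSAD2 and PETE1 lie farthest to the right in both genotypes (1.05 and 0.96 in the rve5-2 libraries, 0.90 and 0.64 in WT), and ATP synthase, FD2 and FNR2 lie near 0.

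In photosystem I, more genes of the subunits that meet electron carriers were called higher with warmth in the rve5-2 libraries than in WT. The difference in response, tested below, was called for none of them. The stromal subunits PSAD and PSAE form the docking site for ferredoxin. PSAD2 (AT1G03130, chromosome 1, 753307 to 754198) had 1087, 1103 and 951 CPM in the rve5-2 libraries at 29 °C and 565, 493 and 459 CPM in those at 22 °C. WT libraries of PSAD2 had 769, 521 and 573 CPM at 29 °C and 359, 302 and 337 CPM at 22 °C. No library at 29 °C overlapped with one at 22 °C within a genotype, and no rve5-2 library overlapped with WT within a temperature. The log2 fold change with warmth was 1.05 (SE 0.14, adjusted p = 0.000339) in the rve5-2 libraries and 0.90 (SE 0.14, adjusted p = 0.00168) in WT, the largest of the members in both genotypes. Its more abundant copy PSAD1 (AT4G02770) had 3399.5, 3126 and 3054 CPM in the rve5-2 libraries at 29 °C and 2736, 2707 and 2597 CPM in those at 22 °C. WT libraries of PSAD1 had 3129, 2270.2 and 2440.0 CPM at 29 °C and 2321, 2037 and 2231 CPM at 22 °C. For PSAD1 the libraries at 29 °C lay above those at 22 °C in the rve5-2 seedlings and overlapped with them in WT. PSAD1 was not called in either genotype, with 0.25 (SE 0.11, adjusted p = 0.112) in the rve5-2 libraries and 0.25 (SE 0.11, adjusted p = 0.143) in WT. PSAE1 (AT4G28750, chromosome 4, 14202758 to 14203961), the more abundant PSAE copy, had 2688, 2453 and 2272 CPM in the rve5-2 libraries at 29 °C and 1655, 1549 and 1628 CPM in those at 22 °C. WT libraries of PSAE1 had 1995, 1564 and 1498 CPM at 29 °C and 1348, 1252 and 1324 CPM at 22 °C. The rve5-2 libraries at 29 °C stood above all others. PSAE1 rose with warmth in both, by 0.62 (SE 0.11, adjusted p = 0.00169) in the rve5-2 libraries and 0.37 (SE 0.11, adjusted p = 0.0362) in WT. The WT call of PSAE1 held in 4 of the 12 fits that leave out a library. PSAE2 (AT2G20260) had 749, 704 and 717 CPM in the rve5-2 libraries at 29 °C and 527, 473 and 511 CPM in those at 22 °C. WT libraries of PSAE2 had 663, 474 and 520.0 CPM at 29 °C and 464, 443 and 477 CPM at 22 °C. For PSAE2 the libraries at 29 °C lay above those at 22 °C in the rve5-2 seedlings and overlapped with them in WT. It rose in the rve5-2 libraries (0.52, SE 0.11, adjusted p = 0.00416) and was not called in WT (0.26, SE 0.11, adjusted p = 0.114). On the lumenal side, PSAN (AT5G64040), which takes part in the docking of plastocyanin, had 1691, 1569.9 and 1406 CPM in the rve5-2 libraries at 29 °C and 1257, 1168 and 1084 CPM in those at 22 °C. In WT it had 1227, 914 and 908 CPM at 29 °C and 991, 877 and 1046 CPM at 22 °C, and the 2 WT groups overlapped. PSAN rose in the rve5-2 libraries (0.41, SE 0.12, adjusted p = 0.0284) and its WT value was 0.07 (SE 0.12, adjusted p = 0.759). PSAF (AT1G31330), the other plastocyanin-docking subunit, had log2 fold changes of 0.40 (SE 0.11, adjusted p = 0.0227) in the rve5-2 libraries and 0.23 (SE 0.11, adjusted p = 0.182) in WT.

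On the antenna side of photosystem I, all genes but PSAG were called higher with warmth in the rve5-2 libraries, and PSAH2 alone was in WT. PSAH, PSAL and PSAO form the region where mobile light-harvesting complex II docks during state transitions, and PSAG and PSAK sit at the edges of the complex near the antenna. PSAH2 (AT1G52230, chromosome 1, 19454836 to 19455668) had 1437, 1442 and 1338 CPM in the rve5-2 libraries at 29 °C and 986, 920.3 and 863 CPM in those at 22 °C. WT libraries of PSAH2 had 1212, 851 and 883 CPM at 29 °C and 755, 669.8 and 739.9 CPM at 22 °C. Again the libraries at 29 °C lay above those at 22 °C in both genotypes, and the rve5-2 libraries lay above WT at both temperatures. It rose in both genotypes, by 0.61 (SE 0.12, adjusted p = 0.00367) in the rve5-2 libraries and 0.44 (SE 0.12, adjusted p = 0.0267) in WT. The other copy PSAH1 (AT3G16140) had 1008, 985 and 912 CPM in the rve5-2 libraries at 29 °C and 801, 715 and 711 CPM in those at 22 °C. WT libraries of PSAH1 had 867, 632 and 652 CPM at 29 °C and 683, 629.7 and 664 CPM at 22 °C. PSAH1 rose in the rve5-2 libraries (0.38, SE 0.11, adjusted p = 0.0243) and was not called in WT (0.12, SE 0.11, adjusted p = 0.49), where the libraries at the 2 temperatures overlapped. PSAO (AT1G08380, chromosome 1, 2640813 to 2641828) had 2242, 2129 and 1891 CPM in the rve5-2 libraries at 29 °C and 1581, 1434 and 1386 CPM in those at 22 °C. WT libraries of PSAO had 1566, 1223 and 1216 CPM at 29 °C and 1169, 1061 and 1166 CPM at 22 °C. At both temperatures the rve5-2 libraries of PSAO lay above WT. With warmth PSAO rose in the rve5-2 libraries (0.51, SE 0.11, adjusted p = 0.00554), and its WT value was 0.24 (SE 0.11, adjusted p = 0.154). PSAK (AT1G30380) and PSAL (AT4G12800) also rose in the rve5-2 libraries, with log2 fold changes of 0.57 and 0.45, while PSAG (AT1G55670) was not called (0.33, SE 0.12, adjusted p = 0.0588). None of these 3 was called in WT, where their log2 fold changes were 0.09 to 0.34.

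On the oxygen-evolving side of photosystem II, PSBP1, PSBQ1, PSBQ2 and PSBR rose in the rve5-2 libraries and no gene was called in WT. PSBO, PSBP and PSBQ are lumenal proteins that shield and stabilise the manganese cluster. PSBO1 (AT5G66570) had 6142, 5770.3 and 5322 CPM in the rve5-2 libraries at 29 °C and 4928, 4689.6 and 4607 CPM in those at 22 °C. WT libraries of PSBO1 had 5099.6, 3756 and 3811 CPM at 29 °C and 4262, 3839 and 4198 CPM at 22 °C. By FPKM, PSBO1 was the more abundant copy in every library. The minor copy PSBO2 (AT3G50820) had 1624, 1572 and 1517 CPM in the rve5-2 libraries at 29 °C and 1341, 1265 and 1246 CPM in those at 22 °C. WT libraries of PSBO2 had 1609.5, 1154 and 1163 CPM at 29 °C and 1231, 1075 and 1226 CPM at 22 °C. For both copies the libraries at 29 °C lay above those at 22 °C in the rve5-2 seedlings and overlapped with them in WT. Neither PSBO copy was called with warmth: PSBO1 stood at 0.28 (SE 0.12, adjusted p = 0.096) and PSBO2 at 0.29 (SE 0.12, adjusted p = 0.0863) in the rve5-2 libraries, and the values were 0.04 and 0.15 in WT. PSBQ1 (AT4G21280) had 2080.1, 2003 and 1915 CPM in the rve5-2 libraries at 29 °C and 1579, 1512 and 1326 CPM in those at 22 °C. WT libraries of PSBQ1 had 2027, 1450.3 and 1516 CPM at 29 °C and 1494, 1250.2 and 1489 CPM at 22 °C. For PSBQ1 the genotypes overlapped at both temperatures. PSBQ2 (AT4G05180, chromosome 4, 2671822 to 2673243) had 1569, 1504 and 1335 CPM in the rve5-2 libraries at 29 °C and 1271, 1116 and 1036 CPM in those at 22 °C. WT libraries of PSBQ2 had 1108, 859.7 and 862 CPM at 29 °C and 941, 803 and 989.9 CPM at 22 °C. Here the rve5-2 libraries lay above WT at both temperatures. Both PSBQ copies rose with warmth in the rve5-2 libraries, PSBQ1 by 0.44 (SE 0.13, adjusted p = 0.0224) and PSBQ2 by 0.36 (SE 0.12, adjusted p = 0.0443), and neither was called in WT (0.24 and 0.05). PSBR (AT1G79040), a small protein that helps to attach PSBP, had 5384, 4762 and 4879 CPM in the rve5-2 libraries at 29 °C and 3533, 3305 and 3318 CPM in those at 22 °C. WT libraries of PSBR had 4833, 3230.4 and 3652 CPM at 29 °C and 3107, 3016 and 3349.7 CPM at 22 °C. In PSBR the libraries at 29 °C lay above those at 22 °C in the rve5-2 seedlings and overlapped with them in WT. It rose in the rve5-2 libraries (0.56, SE 0.13, adjusted p = 0.00708), and its WT value was 0.31 (SE 0.13, adjusted p = 0.117). PSBP1 (AT1G06680) rose in the rve5-2 libraries (0.36, SE 0.12, adjusted p = 0.045), but under quantile normalization its value there was -0.061 (adjusted p = 0.643).

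Among the other photosystem II subunits, PSBS rose in both genotypes and 4 more rose in the rve5-2 libraries. PSBS (AT1G44575, chromosome 1, 16871696 to 16873383), the sensor of lumen acidity that triggers dissipation of excess light energy, had 2103, 2077 and 2147 CPM in the rve5-2 libraries at 29 °C and 1522, 1423 and 1309 CPM in those at 22 °C. WT libraries of PSBS had 2285, 1674 and 1738 CPM at 29 °C and 1428, 1210.0 and 1439.9 CPM at 22 °C. The 2 genotypes overlapped at each temperature, whereas the libraries at 29 °C lay above those at 22 °C in both. PSBS rose by 0.57 (SE 0.12, adjusted p = 0.00441) in the rve5-2 libraries and by 0.48 (SE 0.12, adjusted p = 0.0173) in WT. PSBW (AT2G30570), which stabilises photosystem II supercomplexes, had 2009, 1907 and 1735.2 CPM in the rve5-2 libraries at 29 °C and 1375, 1261 and 1175 CPM in those at 22 °C. WT libraries of PSBW had 1579.7, 1206 and 1271 CPM at 29 °C and 1104, 1004 and 1119.5 CPM at 22 °C. In PSBW the rve5-2 libraries lay above WT at both temperatures. It rose in the rve5-2 libraries (0.57, SE 0.11, adjusted p = 0.0029) and was not called in WT (0.33, SE 0.11, adjusted p = 0.0565). PSBX (AT2G06520), a small membrane subunit, had 1275, 1248 and 1088 CPM in the rve5-2 libraries at 29 °C and 909.9, 801 and 838 CPM in those at 22 °C. WT libraries of PSBX had 1054, 846 and 887 CPM at 29 °C and 822, 802 and 803 CPM at 22 °C. In PSBX the libraries at 29 °C lay above those at 22 °C in both genotypes. Its log2 fold change was 0.50 (SE 0.09, adjusted p = 0.0028) in the rve5-2 libraries and 0.20 (SE 0.09, adjusted p = 0.172) in WT. PSBY (AT1G67740) and the repair factor PSB27 (AT1G03600) rose in the rve5-2 libraries too, with log2 fold changes of 0.41 and 0.46. The assembly protein PSB28 (AT4G28660) had 304, 273 and 279 CPM in the rve5-2 libraries at 29 °C and 287, 275 and 256 CPM in those at 22 °C. WT libraries of PSB28 had 327, 249 and 250.3 CPM at 29 °C and 289.8, 264 and 283 CPM at 22 °C. All 4 groups of PSB28 overlapped. PSB28 was not called in either genotype (rve5-2 libraries 0.07, SE 0.10, adjusted p = 0.668, WT -0.02, SE 0.10, adjusted p = 0.921), nor was the small lumenal subunit PSBTN (AT3G21055; 0.19 and 0.07).

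Both plastocyanin genes were called higher with warmth in both genotypes, though the WT call of PETE2 depended on single libraries. Plastocyanin is the copper protein that carries electrons through the lumen to photosystem I, and Arabidopsis makes it from 2 genes. PETE1 (AT1G76100, chromosome 1, 28553987 to 28554768) had 215, 219 and 211 CPM in the rve5-2 libraries at 29 °C and 116, 102 and 114 CPM in those at 22 °C. WT libraries of PETE1 had 201, 146 and 156 CPM at 29 °C and 109.9, 105 and 108 CPM at 22 °C. The libraries at 29 °C lay above those at 22 °C in both genotypes, and the genotypes overlapped at 22 °C. PETE1 rose by 0.96 (SE 0.10, adjusted p = 0.000108) in the rve5-2 libraries and by 0.64 (SE 0.10, adjusted p = 0.00235) in WT, and had the smallest adjusted p of the members in the rve5-2 libraries. The major copy PETE2 (AT1G20340, chromosome 1, 7042429 to 7043363) had 5438, 4714 and 4721 CPM in the rve5-2 libraries at 29 °C and 3467, 3250.1 and 3188 CPM in those at 22 °C. WT libraries of PETE2 had 5035, 3755 and 3902 CPM at 29 °C and 3397, 3032 and 3284 CPM at 22 °C. As for PETE1, the libraries at 29 °C lay above those at 22 °C in both genotypes. It rose by 0.59 (SE 0.11, adjusted p = 0.00318) in the rve5-2 libraries and by 0.39 (SE 0.11, adjusted p = 0.0373) in WT. The WT call of PETE2 held in 4 of the 12 fits that leave out a library. It was also lost under quantile normalization, on FPKM, with only the 2 groups compared and with the root score. In the b6f complex, PETM (AT2G26500) had 327, 298 and 254 CPM in the rve5-2 libraries at 29 °C and 214, 202 and 207 CPM in those at 22 °C. WT libraries of PETM had 285, 191 and 211 CPM at 29 °C and 193, 233 and 199.5 CPM at 22 °C. In PETM the libraries at 29 °C lay above those at 22 °C in the rve5-2 seedlings and overlapped with them in WT. It rose in the rve5-2 libraries (0.50, SE 0.14, adjusted p = 0.02), with a WT value of 0.14 (SE 0.14, adjusted p = 0.538). The Rieske iron-sulphur protein PETC (AT4G03280) was not called in either, with 0.25 (SE 0.12, adjusted p = 0.129) in the rve5-2 libraries and 0.14 (SE 0.11, adjusted p = 0.423) in WT.

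Ferredoxin, its reductase and the ATP synthase work on the stromal side, and none of their 5 genes among the members was called with warmth. This does not hold for genes outside the members. The ferredoxin genes FD1, FDC1 and FDC2 and the ATP synthase gene ATPC2 rose in the rve5-2 libraries. Their calls held in 12, 3, 12 and 9 of the 12 fits that leave out a library, in that order. FD1 and FDC2 also rose in WT (12 and 8 of 12 fits), and FD3 fell in both genotypes. FD2 (AT1G60950), the main leaf ferredoxin, had 2572, 2532 and 2156 CPM in the rve5-2 libraries at 29 °C and 2402, 2141 and 2287 CPM in those at 22 °C. WT libraries of FD2 had 2595, 1912 and 1962 CPM at 29 °C and 2277, 2142 and 2311 CPM at 22 °C. For FD2 the 2 temperatures overlapped in both genotypes. Its log2 fold change was 0.09 (SE 0.12, adjusted p = 0.621) in the rve5-2 libraries and -0.06 (SE 0.12, adjusted p = 0.778) in WT. Of the 2 leaf reductases, FNR1 (AT5G66190) had 1700.0, 1552 and 1659.8 CPM in the rve5-2 libraries at 29 °C and 1375, 1265 and 1204 CPM in those at 22 °C. WT libraries of FNR1 had 1963, 1256 and 1363 CPM at 29 °C and 1361, 1144 and 1390.3 CPM at 22 °C. For FNR1 the libraries at 29 °C lay above those at 22 °C in the rve5-2 seedlings and overlapped with them in WT. FNR2 (AT1G20020) had 1817, 1654 and 1688 CPM in the rve5-2 libraries at 29 °C and 1999.6, 1858 and 1718 CPM in those at 22 °C. WT libraries of FNR2 had 2119.5, 1428 and 1509 CPM at 29 °C and 1836, 1572 and 1814 CPM at 22 °C. For FNR2 the 2 temperatures overlapped in both genotypes. The fold changes of the reductases had opposite signs: 0.35 (SE 0.14, adjusted p = 0.0892) for FNR1 and -0.11 (SE 0.13, adjusted p = 0.579) for FNR2 in the rve5-2 libraries, and 0.23 and -0.05 in WT. ATPD (AT4G09650), the delta subunit that joins the stator to the ATP synthase head, had 1075, 984 and 965 CPM in the rve5-2 libraries at 29 °C and 998, 960.1 and 856 CPM in those at 22 °C. WT libraries of ATPD had 1129.9, 806 and 807 CPM at 29 °C and 964, 762 and 970.5 CPM at 22 °C. Within each genotype the 2 temperatures overlapped. Its log2 fold change was 0.10 (SE 0.14, adjusted p = 0.619) in the rve5-2 libraries and 0.02 (SE 0.14, adjusted p = 0.923) in WT, and that of ATPC1 (AT4G04640), the rotating gamma subunit, was 0.05 (SE 0.13, adjusted p = 0.792) and 0.01 (SE 0.13, adjusted p = 0.984). Under quantile normalization the signs of FD2, ATPD and ATPC1 in the rve5-2 libraries turned, to -0.14, -0.15 and -0.24.

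Photosystem I transcript stood high against that of the ATP synthase in the rve5-2 libraries at 29 °C. Summed over the 12 photosystem I genes, the level was 29366 ± 1298 FPKM in the rve5-2 libraries at 29 °C and 22898 ± 933 FPKM in those at 22 °C, against 22359.8 ± 2608 FPKM in WT at 29 °C and 19355 ± 719 FPKM in WT at 22 °C (SD, n = 3 each). The 2 ATP synthase genes summed to 1766 ± 52.3 FPKM in the rve5-2 libraries at 29 °C and 1789 ± 121 FPKM in those at 22 °C, and to 1731 ± 233 FPKM in WT at 29 °C and 1773 ± 191 FPKM in WT at 22 °C. A single scaling factor per library drops out of the ratio of the photosystem I sum to the ATP synthase sum. Quantile normalization is not such a factor, and the ratio was not computed under it. This ratio was 16.6 ± 0.436 in the rve5-2 libraries at 29 °C and 12.8 ± 0.5599 in those at 22 °C, and in WT 12.9 ± 0.223 at 29 °C and 10.98 ± 0.833 at 22 °C. The same ratio for the oxygen-evolving genes was 10.97 ± 0.0924 and 8.75 ± 0.384 in the rve5-2 libraries at 29 and 22 °C, and 8.999 ± 0.192 and 8.08 ± 0.565 in WT at 29 and 22 °C. For the sum of the members FD2, FNR1 and FNR2 the ratio differed by less than the spread between libraries. It was 2.73 ± 0.0506 and 2.72 ± 0.172 in the rve5-2 libraries at 29 and 22 °C, and 2.72 ± 0.04405 and 2.76 ± 0.199 in WT at 29 and 22 °C. The leaf ferredoxin FD1, which rose with warmth in both genotypes, is not a member and is not in this sum. The ratios were chosen after the values were seen and are given without a test.

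**Figure D2:**
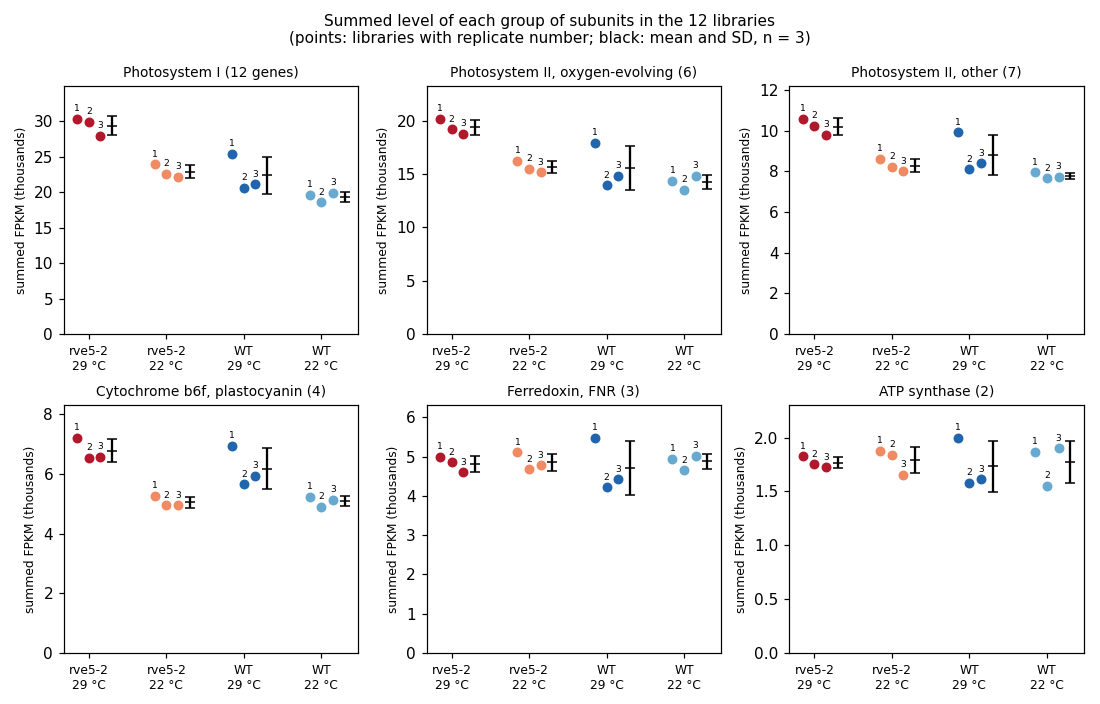
Summed FPKM of the members of each role (in units of 1000 on the axis), 1 point per library and a bar at the mean of the 3 libraries, in the 4 groups. Photosystem I is highest in the rve5-2 libraries at 29 °C (mean 29366 FPKM), and the ATP synthase sums overlap in all 4 groups.

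Between the libraries labelled rve5-2 and WT at 22 °C, no member was called in either direction, while 0.137% of all genes were called higher and 0.0549% lower. The members' median log2 fold change was 0.13, against -0.0028 for all genes, 31 of 34 were positive and 10 members had an unadjusted p under 0.05, as did 6.39% of all genes. In 15 members the 3 rve5-2 libraries all lay above the 3 WT libraries, as in 7.2% of all genes. The smallest adjusted p was that of PSAD2 (0.61, SE 0.14, adjusted p = 0.207), followed in size of change by PSAO (0.37, SE 0.11, adjusted p = 0.469) and PSAH2 (0.36, SE 0.12, adjusted p = 0.599). Photosystem I had the highest median of the roles, 0.29. Under quantile normalization the members' median was 0.07 and 21 of 34 were positive, and without WT 22 °C replicate 2 the values were 0.09 and 25. DESeq2 called PSAD2 alone of the members (0.49% of all genes), 2 members (PSAD2 and PSAH2) were called without WT 29 °C replicate 1 (0.243% of all genes), and PSAD2 was called with the root score as a covariate (0.219% of all genes).

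Between the libraries labelled rve5-2 and WT at 29 °C, all 34 members had a positive log2 fold change, with a median of 0.36 against -0.0069 for all genes, and 4 were called higher and none lower (11.8% of members), while 0.32% of all genes were called higher and 0.146% lower. The 4 were photosystem I subunits PSAD2 (0.75, SE 0.14, adjusted p = 0.0299), PSAE1 (0.55, SE 0.11, adjusted p = 0.0469) and PSAO (0.64, SE 0.11, adjusted p = 0.0189) and the oxygen-evolving PSBQ2 (0.64, SE 0.12, adjusted p = 0.0452). A further 20 members had an unadjusted p under 0.05, which makes 24, against 8.4% of all genes. In 16 members the rve5-2 libraries did not overlap with WT, against 6.13% of all genes. PSAD2 averaged 1047 ± 83.5 CPM in the rve5-2 libraries and 621 ± 131 CPM in WT, and PSBQ2 averaged 1469 ± 121 CPM in the rve5-2 libraries and 943 ± 143 CPM in WT (SD, n = 3 each). PSAN, with 0.61 (SE 0.12, adjusted p = 0.0593), and PSBW, with 0.48 (SE 0.11, adjusted p = 0.101), did not pass. By role the medians were 0.49 for photosystem I, 0.40 for the oxygen-evolving side, 0.26 for the rest of photosystem II, 0.29 for b6f and plastocyanin, 0.10 for ferredoxin and its reductase and 0.11 for the ATP synthase.

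The size and the calls at 29 °C depended on scaling and on single libraries. Under quantile normalization the median was 0.09 with 23 of 34 members positive and 4 called (0.407% of all genes), and without WT 29 °C replicate 2 the median was 0.25 with 31 positive. Without WT 29 °C replicate 1, 26 members were called higher (1.6% of all genes) and the median was 0.53: 12 of 12 photosystem I genes, 6 of 6 oxygen-evolving genes, 5 of 7 other photosystem II genes, 3 of 4 b6f and plastocyanin genes, and no gene of ferredoxin, its reductase or the ATP synthase. In that fit PSAD2 stood at 0.94 (SE 0.11, adjusted p = 0.000456), PSAO at 0.78 (SE 0.08, adjusted p = 0.000392) and PSBQ2 at 0.77 (SE 0.11, adjusted p = 0.00217). No member was called without WT 29 °C replicate 2, without WT 29 °C replicate 3, without rve5-2 29 °C replicate 1 or without rve5-2 29 °C replicate 2, and none of the 4 was called with every single library left out. DESeq2 called 15 members (1.07% of all genes), and 18 were called with the root score as a covariate (0.777% of all genes). Root markers did not differ between genotypes by the test, but WT 29 °C replicate 1 was both low in root markers and high in members; the part of root RNA in the genotype difference was not tested.

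**Figure D3:**
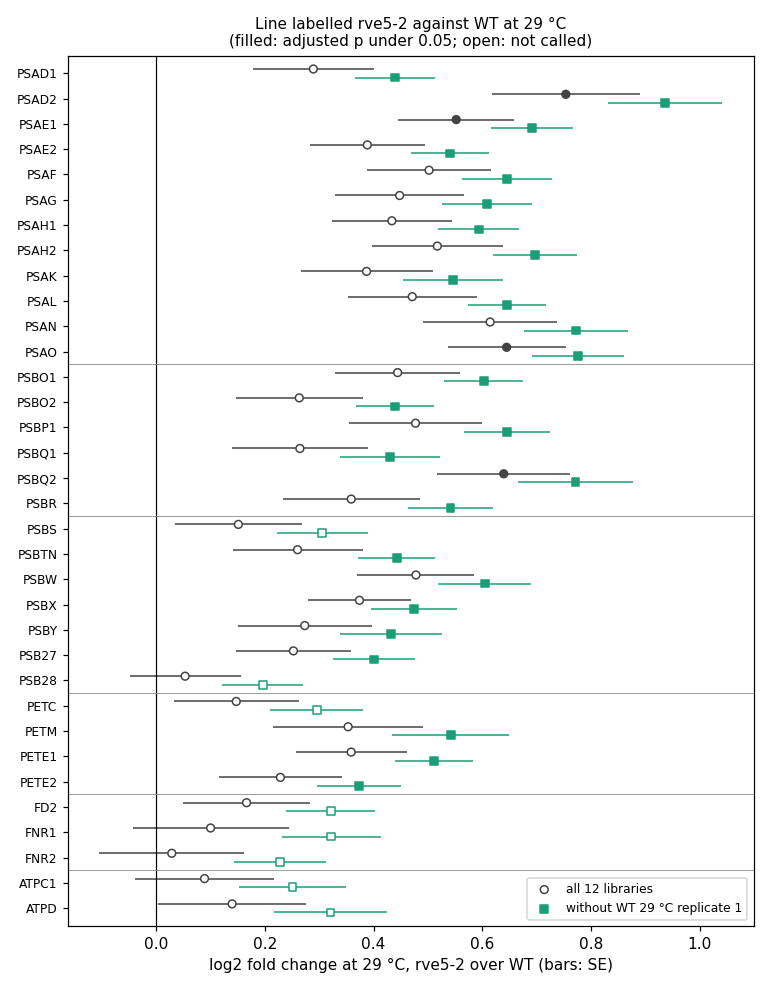
Log2 fold change of the libraries labelled rve5-2 against WT at 29 °C for each member, from all 12 libraries and without WT 29 °C replicate 1, with standard errors and called members marked. All 34 values are positive with all libraries, 4 of them called, and 26 are called without that replicate.

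The warm response of the rve5-2 libraries minus that of WT, tested as an interaction, called no member and no gene in either direction (0% of all genes higher and 0% lower by edgeR; 0.0686% higher by DESeq2, none of them a member). The members' median was 0.19, against -0.0035 for all genes, and 33 of 34 were positive; under quantile normalization they were 0.05 and 21 of 34. An unadjusted p under 0.05 was found for 2 members, PSBX and PETE1, and for 4.89% of all genes. The smallest adjusted p of a member was 0.981. The difference between 22 called members in the rve5-2 libraries and 6 in WT is therefore not shown to be a difference in response. WT 29 °C replicate 1 enters the WT response and the genotype difference at 29 °C with opposite sign.

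**Figure D4:**
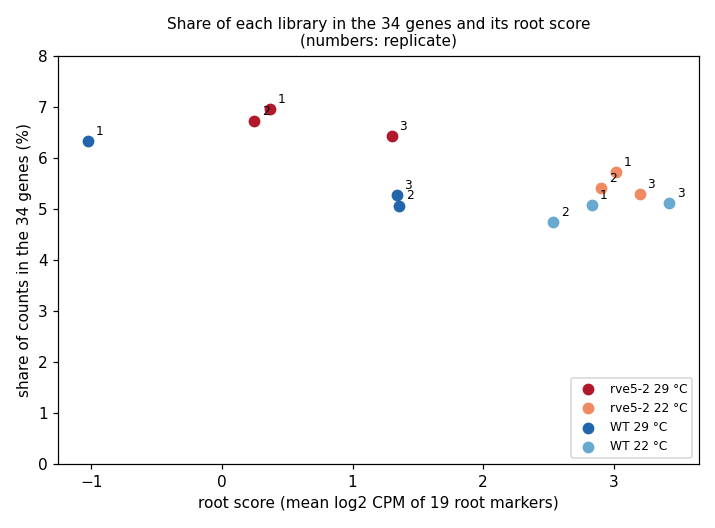
Share of counts taken by the 34 members (percent) against the mean log2 CPM of 19 root markers, 1 point per library, in the 4 groups. WT 29 °C replicate 1 lies apart from its group at -1.03 and 6.32%, and the libraries at 29 °C lie left of those at 22 °C in both genotypes.

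The balance between the 2 gene copies of a subunit shifted with temperature, though little in PSAE and PSBO, and, in most pairs, between genotypes. In 7 subunits the 2 nuclear copies can be set against each other within a library, which takes any single scaling factor per library out of the value. For each pair the log2 ratio of CPM (first copy over second) was compared between temperatures and between genotypes by a two-sided exact permutation test within the other factor, with p-values adjusted over 14 tests; the smallest p the design allows is 0.005. The contrasts are averaged over genotypes or over temperatures. PSAD1 over PSAD2 moved most: its log2 ratio was 1.64, 1.503 and 1.68 in the rve5-2 libraries at 29 °C and 2.28, 2.46 and 2.50 in those at 22 °C. WT libraries had 2.02, 2.12 and 2.09 at 29 °C and 2.69, 2.76 and 2.73 at 22 °C, and no 2 groups overlapped. The difference between 29 and 22 °C was -0.72 (exact p = 0.005, adjusted p = 0.00875), and between the rve5-2 libraries and WT the difference was -0.39 (exact p = 0.005, adjusted p = 0.00875). In FPKM, PSAD2 made up 23.5% of PSAD transcript in the rve5-2 libraries at 29 °C and 14.98% in those at 22 °C, and in WT 18.1% at 29 °C and 12.4% at 22 °C.

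PSAH moved in the same directions: PSAH1 over PSAH2 differed by -0.27 (exact p = 0.005, adjusted p = 0.00875) between 29 and 22 °C and by -0.14 (exact p = 0.005, adjusted p = 0.00875) between the rve5-2 libraries and WT. PSAH2 made up 59.3% of PSAH transcript in the rve5-2 libraries at 29 °C and 55.5% in those at 22 °C, and in WT 57.8% at 29 °C and 52.3% at 22 °C. In PSBQ, genotype and warmth went opposite ways. The log2 ratio of PSBQ1 over PSBQ2 was 0.41, 0.41 and 0.52 in the rve5-2 libraries at 29 °C, 0.31, 0.44 and 0.36 in those at 22 °C, 0.87, 0.75 and 0.82 in WT at 29 °C and 0.67, 0.64 and 0.59 in WT at 22 °C, so that every rve5-2 library lay below every WT library. Its difference was -0.31 (exact p = 0.005, adjusted p = 0.00875) between genotypes and 0.13 (exact p = 0.015, adjusted p = 0.021) between temperatures. PSBQ2 thus made up 39.03% of PSBQ transcript in the rve5-2 libraries at 29 °C and 40.3% in those at 22 °C, against in WT 33.2% at 29 °C and 36.04% at 22 °C. The PSAE and PSBO ratios moved little. PSAE1 over PSAE2 differed by 0.10 (exact p = 0.035, adjusted p = 0.0408) between temperatures and by 0.17 (exact p = 0.01, adjusted p = 0.0156) between genotypes. Its libraries at 29 and 22 °C overlapped in both genotypes. PSBO1 over PSBO2 differed by -0.06 (exact p = 0.035, adjusted p = 0.0408) between temperatures and by 0.13 (exact p = 0.005, adjusted p = 0.00875) between genotypes. Its temperature difference was -0.016 with overlap in the rve5-2 libraries and -0.108 without overlap in WT.

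In plastocyanin and the reductase, the ratio was called with temperature and, averaged over temperatures, not with genotype. PETE1 over PETE2 differed by 0.31 (exact p = 0.005, adjusted p = 0.00875) between 29 and 22 °C and by 0.07 (exact p = 0.175, adjusted p = 0.188) between the rve5-2 libraries and WT. PETE1 made up 4.95% of plastocyanin transcript in the rve5-2 libraries at 29 °C and 3.86% in those at 22 °C, and in WT 4.52% at 29 °C and 3.83% at 22 °C. FNR1 over FNR2 differed by 0.37 (exact p = 0.005, adjusted p = 0.00875) between temperatures, although neither gene was called alone, and by -0.02 (exact p = 0.655, adjusted p = 0.655) between genotypes. That genotype value averages opposite differences, -0.11 at 22 °C and 0.077 at 29 °C, and the genotypes did not overlap at either temperature. FNR1 made up 46.9% of reductase transcript in the rve5-2 libraries at 29 °C and 38.97% in those at 22 °C, and in WT 45.5% at 29 °C and 40.8% at 22 °C. In all, 7 of 7 ratios were called with temperature and 5 of 7 with genotype. Ratios of other gene pairs were not tested, so no background share can be set beside these counts. The temperature calls of PSAE and PSBO, with exact p = 0.035 each, were lost when any of several single libraries was left out, WT 29 °C replicate 1 among them. In no fit with a single library left out were all 7 temperature calls kept. All other calls held.

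**Figure D5:**
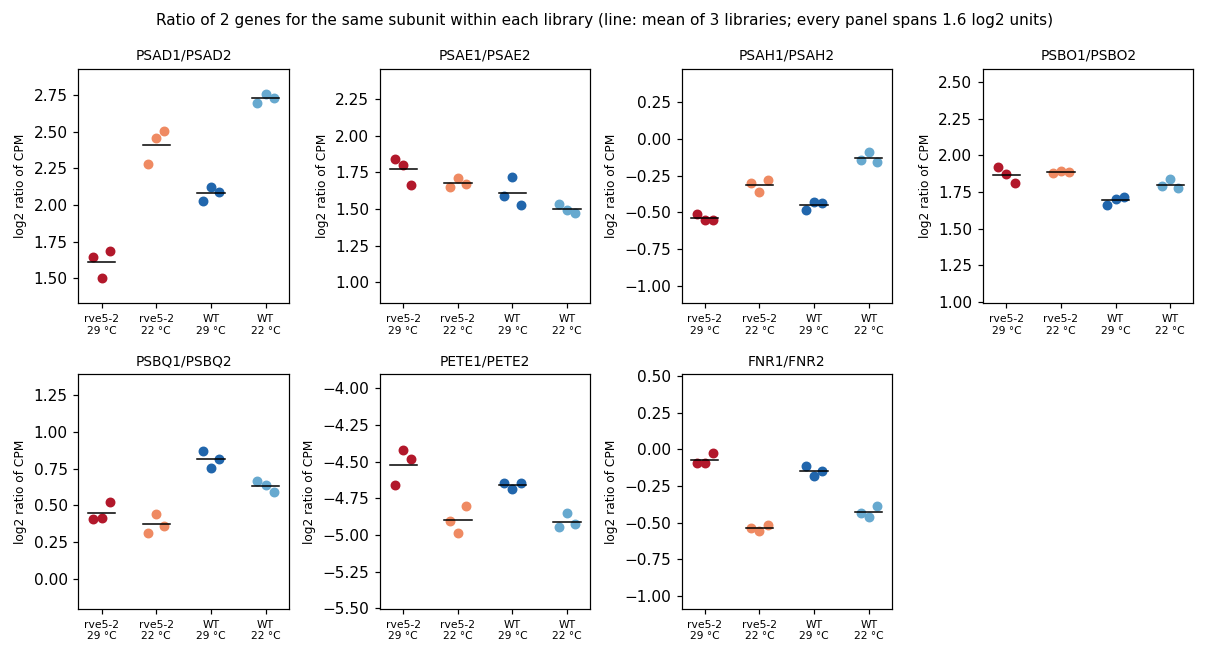
Log2 ratio of CPM of the first over the second gene copy in 7 pairs, 1 point per library in the 4 groups, each panel spanning 1.6 log2 units. The 4 groups of PSAD1 over PSAD2 do not overlap, the PSBQ panel separates the rve5-2 libraries from WT, and the plastocyanin and reductase panels separate 29 from 22 °C.

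Genes that work beside the members were tested in the same fits, in which 13% of all genes were called higher with warmth in the rve5-2 libraries and 8.08% in WT. Of 29 further electron transport genes (minor ferredoxins, cyclic flow, NDH subunits, kinases and thylakoid shape), 18 rose and 1 fell with warmth in the rve5-2 libraries and 11 rose and 1 fell in WT, and none was called between genotypes. Their median log2 fold changes were 0.51 in the rve5-2 libraries and 0.27 in WT. Without WT 29 °C replicate 1, 23 rose and 2 fell in the rve5-2 libraries and 9 rose and none fell in WT. In that fit 14.9% of all genes were called higher and 16.5% lower in the rve5-2 libraries, and 5.58% higher in WT. FD1, the minor leaf ferredoxin, averaged 1149 ± 38.5 CPM in the rve5-2 libraries at 29 °C and 495 ± 32.2 CPM in those at 22 °C. WT libraries of FD1 averaged 1122 ± 166 CPM at 29 °C and 589 ± 51.8 CPM at 22 °C. It rose by 1.22 (SE 0.11, adjusted p = 2.54e-05) in the rve5-2 libraries and by 0.93 (SE 0.11, adjusted p = 0.000339) in WT. Set against the major FD2 in FPKM, FD1 stood at 57.8, 59.1 and 65.3% of FD2 in the rve5-2 libraries at 29 °C and at 28.2, 28.8 and 26.1% in those at 22 °C, and at 64.4, 70.1 and 65.1% in WT at 29 °C and 35.5, 31.7 and 33.1% in WT at 22 °C; this ratio was chosen after the values were seen and has no test. PGRL1B and PGR5, which act in cyclic electron flow around photosystem I, rose too: PGRL1B by 1.07 (SE 0.13, adjusted p = 0.000264) in the rve5-2 libraries and 1.10 (SE 0.13, adjusted p = 0.000528) in WT, and PGR5 by 0.88 (SE 0.11, adjusted p = 0.0003) and 0.58 (SE 0.11, adjusted p = 0.00583). NDHO, of the NDH complex, rose by 0.67 (SE 0.10, adjusted p = 0.000911) and 0.59 (SE 0.10, adjusted p = 0.00363). The 1 gene that fell in each was FD3, a ferredoxin of non-green tissue, with -0.51 (SE 0.17, adjusted p = 0.0451) in the rve5-2 libraries and -0.61 (SE 0.17, adjusted p = 0.032) in WT; it was named after its value was seen. Its call was lost in 6 of the 12 fits that leave out a library in the rve5-2 libraries and in 4 of 12 in WT.

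Among 21 assembly factors, 7 rose in the rve5-2 libraries and 2 in WT with medians of 0.21 and 0.14. The WT share is near that of all genes. Without WT 29 °C replicate 1, 10 rose in the rve5-2 libraries (14.9% of all genes). OHP1, a thylakoid protein needed for photosystem II assembly, averaged 106 ± 12.1 CPM in the rve5-2 libraries at 29 °C and 64.95 ± 1.71 CPM in those at 22 °C. WT libraries of OHP1 averaged 79.8 ± 9.54 CPM at 29 °C and 64.5 ± 1.02 CPM at 22 °C. It rose by 0.70 (SE 0.09, adjusted p = 0.000428) in the rve5-2 libraries and 0.31 (SE 0.09, adjusted p = 0.0449) in WT. HCF107, which stabilises plastid psbH transcripts, rose in the rve5-2 libraries (0.58, SE 0.10, adjusted p = 0.00196), as did LQY1, a thylakoid zinc-finger protein of photosystem II repair (0.60, SE 0.11, adjusted p = 0.00232). HCF164, a thioredoxin-like protein needed for cytochrome b6f assembly, rose by 0.60 (SE 0.12, adjusted p = 0.00336) in the rve5-2 libraries and by 0.43 (SE 0.12, adjusted p = 0.026) in WT. The WT counts rested on single libraries. Without WT 29 °C replicate 1 no assembly factor was called higher, against 5.58% of all genes. ALB3 and CYP38, named after their values were seen, were called lower in that fit, against 5.59% of all genes. No assembly factor was called in WT without WT 22 °C replicate 1, 2 or 3. LQY1 was the 1 gene of the list called between genotypes, at 29 °C (0.57, SE 0.11, adjusted p = 0.0478). It was called in 2 of the 12 fits that leave out a library. In the fit without WT 29 °C replicate 1, 7 assembly factors were called higher in the rve5-2 libraries than in WT at 29 °C (1.6% of all genes). Among 11 regulators, 3 rose in the rve5-2 libraries (median 0.17) and 2 in WT (median 0.15), and none was called between genotypes. Without WT 29 °C replicate 1, 5 rose in the rve5-2 libraries (median 0.17, 14.9% of all genes called higher) and 2 in WT (median -0.04, 5.58% of all genes). GLK2, a transcription factor that activates nuclear photosynthesis genes, averaged 93.1 ± 5.92 CPM in the rve5-2 libraries at 29 °C and 40.3 ± 2.87 CPM in those at 22 °C. WT libraries of GLK2 averaged 68.4 ± 9.81 CPM at 29 °C and 36.97 ± 5.24 CPM at 22 °C. It rose by 1.21 (SE 0.12, adjusted p = 5.9e-05) in the rve5-2 libraries and by 0.89 (SE 0.12, adjusted p = 0.000842) in WT. The sigma factors of the plastid RNA polymerase SIG1 and SIG4 rose in the rve5-2 libraries (0.72, SE 0.12, adjusted p = 0.00133; 0.56, SE 0.10, adjusted p = 0.00259), and SIG4 rose in WT (0.60, SE 0.10, adjusted p = 0.00363). Without WT 29 °C replicate 1, at 29 °C the rve5-2 libraries were called higher than WT for 9 of the electron transport genes and for the regulators GLK1, GLK2 and SIG1, the last 3 named after their values were seen. In that fit 1.6% of all genes were called higher, and with all 12 libraries no gene of these 2 lists was.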

How the data were processed

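RNA of 12 seedling libraries was measured. Per the file headers, the deposited table gives a count per gene and library and an FPKM value (fragments per kilobase of transcript per 1e6 mapped fragments) that the authors computed; a gene without reads is listed at a small fixed FPKM. The submitters' processing notes name cutadapt 1.9, HISAT2 2.0.4, StringTie 1.3.4d, edgeR and the build TAIR10. Which of them made each column and how reads were given to genes are not stated in the sources used here. The deposited counts are whole numbers, but low counts pile up at 4, 8, 12, 16, 19, 23 and 27, which would fit a scaling of about 4 per fragment. They were analysed as deposited, with totals of 65.9 to 89.1 M (1e6), and counting error is then larger than the counts themselves imply. Counting error is the only error that depth sets; the spread between libraries enters through the replicates.

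Libraries were grouped by their labels, and the members and gene lists were chosen with earlier results of these data known. Members were matched by gene identifier. Counts were fitted in R 4.3.3 with edgeR 4.0.16 (quasi-likelihood, TMM scaling, filterByExpr with a minimum count of 10, 1 mean per group, all 12 libraries), which kept 21870 of 32399 genes; 7821 genes had no count at all. The 5 comparisons were 29 against 22 °C in each genotype, rve5-2 libraries against WT within each temperature, and their interaction. Benjamini-Hochberg adjustment ran over every gene tested, with calls under 0.05. Standard errors were approximated as the absolute log2 fold change over the square root of the quasi-likelihood F. Copy ratios were tested by enumerating all 400 arrangements of libraries within the other factor. The same fit was also run on simulated counts, with means and spread taken from the fit to these data. Values per library are given for both copies of each pair and, in each comparison, for the member of each role with the smallest adjusted p and the 2 members with the most positive and the 2 with the most negative log2 fold change; of the other lists, up to 3 called genes with the smallest adjusted p per comparison are named. Alternatives were DESeq2 1.42.0, median-of-ratios scaling, limma 3.58.1 on quantile-normalized CPM and on FPKM with a pseudocount of 1 or 0.1, other filters, only the 2 groups compared, a replicate block, a root score (mean log2 CPM of 19 root markers) as covariate, and each library left out. Plastid-encoded genes were listed but are not analysed here, since the table covers chromosomes 1 to 5.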

Additional observations from a re-analysis of the deposited data

Results flagged for a closer look

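The balance of the 2 leaf ferredoxin-NADP+ reductase genes differed between genotypes in opposite directions at the 2 temperatures. The log2 ratio of FNR1 over FNR2 was -0.540, -0.555 and -0.513 in the rve5-2 libraries at 22 °C, all below the WT libraries at -0.432, -0.458 and -0.384, a mean difference of -0.11. At 29 °C it was -0.096, -0.092 and -0.024 in the rve5-2 libraries, all above the WT libraries at -0.111, -0.184 and -0.147, a mean difference of 0.077. The change in the difference was not tested.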

How the results depend on the processing

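Of the values of single members and copy ratios under the alternatives, 3617 kept their side of the threshold, 174 lost the call with the same sign, 93 gained it with the same sign, and 4 turned sign with a call in 1 of the 2 fits. Of the 3617, 172 also turned sign, with no call before or after. Of all turned signs, quantile normalization gave 50, the root score 38, and FPKM 11 with either pseudocount. Single libraries left out gave up to 14 each (WT 22 °C replicate 2). The 4 with a call were PSBP1 (quantile normalization, -0.061, adjusted p = 0.643; root score as covariate, -0.0047, adjusted p = 0.992), PETM (-0.038 with the root score, adjusted p = 0.919) and ATPC1 (-0.24 under quantile normalization, adjusted p = 0.0265), all with warmth in the rve5-2 libraries; the cause was not tested. Brackets in the next sentences give the share of all genes called higher in the same fit. With warmth in the rve5-2 libraries, 22 members were called higher (13%), 12 under quantile normalization (15.6%, with 2 members lower), 1 with the root score (1.28%), and 13 to 29 with single libraries left out (8.45 to 14.9%). With warmth in WT, 6 were called (8.08%), 2 when only the 2 groups compared were fitted (4.27%), 0 with the root score (0.37%), and 2 to 10 with single libraries left out (4.43 to 7.79%). For rve5-2 libraries against WT at 22 °C, 0 were called (0.137%), 1 each under quantile normalization (0.165%), DESeq2 (0.49%), only the 2 groups compared (0.21%) and the root score (0.219%), and 0 to 2 with single libraries left out (0.0722 to 0.243%). At 29 °C, 4 were called (0.32%), 2 under median-of-ratios scaling (0.297%), 15 by DESeq2 (1.07%), 0 when only the 2 groups were fitted (0.142%), 18 with the root score (0.777%), and 0 to 26 with single libraries left out (0.153 to 1.6%). No alternative called a member in the interaction. With single libraries left out, 5 to 6 copy ratios were called with temperature and 5 with genotype. The samples of 1 number share only that number: same-numbered libraries had deviations correlated at -0.015 to 0.19. In each comparison of 2 groups, each library of the first group was matched to the libraries of the second. In 7 of 12 such cases it correlated best with its own number. The rve5-2 libraries at 29 °C entered these cases more than once. With a replicate block, 27, 9, 0, 8 and 0 members were called higher in the 5 comparisons, in the order rve5-2 warmth, WT warmth, 22 °C, 29 °C and interaction. Of all genes, 13.4, 8.8, 0.142, 0.416 and 0% were called higher in those fits. Leaving out organelle genes was not run, since the table covers chromosomes 1 to 5. The lowest member count was 7235; whether depth or the number of libraries limits the calls was not tested.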
